A study of Mus musculus with 42 samples.

Results

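Immediate early genes are transcribed within minutes of a stimulus from factors already present in the cell. A set of 10 of them was examined in mouse brain: Fos, Fosb, Junb, Egr1, Egr2, Arc, Npas4, Nr4a1, Dusp1 and Ier2. The set was taken by gene name, and all 10 were found among the 50765 rows of the brain ribosome-footprint table, each as a protein-coding gene. Every one of the 10 passed the filter on low signal in each comparison below.

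The animals were Pcif1 knockout (KO) mice and wild-type (WT) mice, both adult. Testes of KO and heterozygous (HET) mice, 3 libraries in each of 4 groups, were assayed for m6Am and are described without a test. PCIF1 adds a methyl group to an adenosine that is the first base of an mRNA, next to the cap, and the product is called m6Am. The KO allele is an 89 bp deletion at exon 15 and intron 16, as the labels number them, made with Cas9 in B6D2F1/J hybrid embryos, and its founders were crossed to C57BL/6J. The deletion removes catalytic residues of the methyltransferase domain and brings in an early stop codon, was passed through the germline, and is described by the labels as 1 line. Brains of 3 KO and 3 WT mice were lysed with cycloheximide in the buffer. Part of each lysate was digested with RNase I to leave ribosome footprints, and part gave input RNA, so there were 12 libraries, 3 in each of 4 groups. The labels do not give how the mice were handled, or the time of day, before collection.

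In neurons, synaptic activity and calcium entry act through kinases on the factors CREB, SRF and MEF2, which sit at the promoters of these genes. The products then fall into several roles. Fos, Fosb and Junb encode subunits of the AP-1 transcription factor, Egr1, Egr2, Npas4 and Nr4a1 encode DNA-binding factors of other families, and Arc encodes a synaptic protein that promotes removal of AMPA receptors. Dusp1 encodes a phosphatase that switches off MAP kinases, and Ier2 encodes a nuclear protein of the same early response. Their mRNAs are mostly short-lived.

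Because PCIF1 acts on an adenosine in the first position, the first transcribed base is shown for 7 of the 10 genes. It was taken from RefSeq promoter entries (build GRCm38.p6), with 11 annotated starts, and Egr2 alone had 5 of these. Egr1 was left out and not searched, so its absence here does not mean that it lacks an entry. No entry was found for Arc and Ier2. Each line holds 25 bases around a start on the strand named, with the first transcribed base in capitals.
Fos, chr12:85473878-85473902 (+ strand): gcctactactccAaccgcgactgca
Fosb, chr7:19310033-19310057 (- strand): gctcccggtttcAttcataagactg
Junb, chr8:84978736-84978760 (- strand): tgacaaattcagTataaaagcttgg
Egr2 start 1, chr10:67535487-67535511 (+ strand): cagcgaagcgccAgcagtcgccagg
Egr2 start 2, chr10:67537554-67537578 (+ strand): agcgcggccgccGtgggtgaactca
Egr2 start 3, chr10:67537857-67537881 (+ strand): acactttccgtcTgagagagcagcg
Egr2 start 4, chr10:67537858-67537882 (+ strand): cactttccgtctGagagagcagcga
Egr2 start 5, chr10:67537918-67537942 (+ strand): ttataataacacTacaccagcaact
Npas4, chr19:4989959-4989983 (- strand): aggcaggcgaggGgggcagcgctgc
Nr4a1, chr15:101266834-101266858 (+ strand): ggctcgccagggGagccccagtgca
Dusp1, chr17:26508460-26508484 (- strand): ggacgagcgcgcAgtgaaggactgg
The annotated first base was A in Fos, Fosb, Dusp1 and start 1 of Egr2, which makes 4 of the 11 starts. It was T in Junb, G in Npas4 and Nr4a1, G in starts 2 and 4 of Egr2 and T in its starts 3 and 5. The T of Junb is itself the first letter of TATAAA, the sequence of a TATA box. Of 32851 mouse promoters in the same table, 34.4% had A as the annotated first base. An annotated start is one position, and the starts used in these brains were not measured here.

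Before any result, a pair of libraries has to be named. The WT footprint replicate 2 library had correlations of log2 signal of 0.895 to 0.902 with the KO footprints and of 0.866 to 0.876 with the other WT footprints, over the 14377 genes tested there. It also lacked signal from AY036118, a transcript counted here as ribosomal RNA. AY036118 was listed at 0 in all 3 KO footprints and in this library, and at 6042890 and 2813990 in WT footprint replicates 1 and 3. In input the same transcript was at 2419.7, 1719.5 and 1598 in KO and at 12.2, 62.4 and 19.2 in WT. The KO input replicate 2 library was shallow, with an estimated 5528846 reads against 15170523 to 17443578 in the WT inputs and at most 16206748 in the KO inputs. Footprint libraries held an estimated 13613345 to 15497221 reads in KO and 13981496 to 16559838 in WT, of which ribosomal RNA took 67.6 to 72.6% in KO and 72.6 to 75.7% in WT. Pcif1 itself had an input signal of 201 to 259 in KO against 253 to 388 in WT (log2 difference -0.41 ± 0.19 (SE), limma adjusted p = 0.491). Its gene-level signal also counts the undeleted exons, so it does not check the genotype labels. The label of WT footprint replicate 2 could not be checked, and every KO against WT footprint value below depends on it, so results that rest on it are also given without that library.

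Values below are the deposited signal, which is reads per gene scaled for each library and not divided by gene length, so levels are compared between groups and never between genes. Differences are in log2(signal + 1), tested with limma over all genes that reached a signal of 10 in 3 or more libraries. A gene was called when its Benjamini-Hochberg adjusted p was below 0.05. The labels describe brains of separate mice, so p-values of KO against WT within an assay measure the spread between animals within a genotype. Those of footprint against input, and of its difference between genotypes, pool the spread of all 12 libraries. They take footprint and input of a mouse as independent. In bulk tissue, fewer cells of a type and less RNA per cell cannot be told apart.

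None of the 10 genes was called different between KO and WT footprints, although 8 of the 10 had a negative difference. The difference was largest in size for Fosb, a lower KO footprint signal in every KO library than in any WT library. Nr4a1 and Egr1 also had all 3 KO footprint libraries below all 3 WT ones. Of 14377 genes tested, 21 were called higher and 11 lower in KO (0.146 and 0.0765%), and 8.74% had all KO libraries below all WT libraries. By limma 3 of the 10 had an unadjusted p below 0.05, as did 1546 of all genes tested. The median difference was -0.25 over the 10 genes and 0.01 over all genes tested.

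Among the AP-1 subunits, Fosb had a footprint signal of 81.2, 78.7 and 124 in KO brains, against 281, 224 and 404 in WT brains. The highest KO library stood below the lowest WT library, and the KO mean was 0.312 of the WT mean. The fitted difference was -1.66 ± 0.29 (SE), with a 95% interval of -2.34 to -0.98, an unadjusted p of 0.000596 and an adjusted p of 0.171 by limma. An estimated 61 to 112 reads lay behind each KO value and 148 to 308 behind each WT value.

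Fos, the usual partner of the Jun proteins, had a footprint signal of 509, 607 and 540.1 in KO brains, against 829, 491 and 731 in WT brains. The groups overlapped because WT replicate 2 was lower than every KO library. Its difference was -0.28 ± 0.22 (SE; adjusted p = 0.623 by limma).

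Junb had 620, 606 and 512 in KO footprints, against 670, 573 and 640 in WT footprints. These ranges overlapped, and the difference of -0.12 (95% interval -0.47 to 0.24) had an adjusted p of 0.763 by limma.

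In the EGR family of zinc-finger factors, Egr1 had 1291, 1173 and 1200.2 in KO footprints, against 1862, 1332 and 2136 in WT footprints. All KO libraries were below all WT libraries, with a gap set by WT replicate 2. The difference was -0.51 ± 0.19 (SE), with an unadjusted p of 0.0285 and an adjusted p of 0.44 by limma. Egr2, known for its part in Schwann cell myelination and also induced in neurons, had 96.2, 89.8 and 89.1 in KO footprints, against 174, 58.4 and 90.3 in WT footprints. The 3 KO libraries lay within the WT range.

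Nr4a1, an orphan nuclear receptor, had 135, 260.0 and 318 in KO footprints, against 557, 413 and 479 in WT footprints. Its KO libraries were all lower, and KO replicate 1 was the lowest of them by a wide margin. The difference was -1.10 ± 0.32 (SE), with an unadjusted p of 0.0102 and an adjusted p of 0.405 by limma, and its 95% interval ran from -1.85 to -0.35. Npas4, a neuron-restricted factor that responds to calcium entry, had 115, 126 and 113 in KO footprints, against 192, 49.5 and 114 in WT footprints. The KO values were close together and lay inside the WT range.

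Arc had 644, 751 and 621 in KO footprints, against 1008, 628 and 1292 in WT footprints. A pair of the WT libraries stood above every KO library and WT replicate 2 stood among the KO libraries, with a difference of -0.48 ± 0.26 (SE; adjusted p = 0.508 by limma). Dusp1 had 231, 326 and 315 in KO footprints, against 385, 279 and 346 in WT footprints, and the groups overlapped. Ier2 was the member with the largest positive difference, 0.45 ± 0.26 (SE; adjusted p = 0.525 by limma), from 95.1, 111 and 104 in KO footprints against 104, 63.9 and 63.9 in WT footprints.

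**Figure D1:**
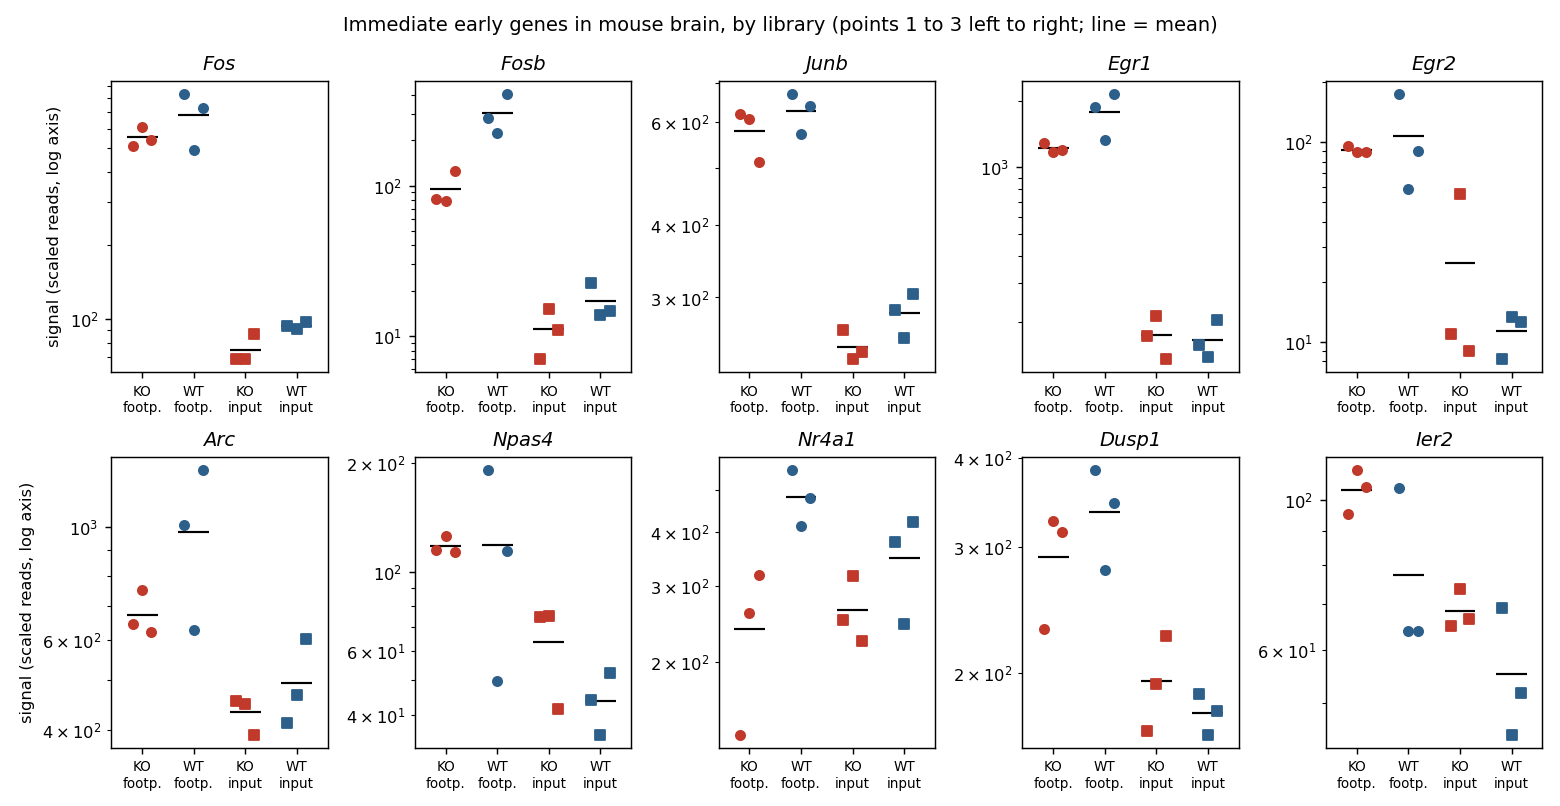
Deposited signal (scaled reads, log axis) of each of the 10 genes in every brain library, with KO left of WT and footprints left of input. Points are the 3 libraries of a group and lines are group means; Fosb, Nr4a1 and Egr1 footprints do not overlap between KO and WT.

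WT footprint replicate 2 had the lowest signal of the 3 WT footprints in 10 of the 10 genes, a place it held in 39.6% of all genes tested, although for Ier2 it was level with replicate 3 to 3 digits. The mean log2 deviation of the 10 genes from their own means was -0.32, -0.13 and -0.13 in the KO footprints, and 0.51, -0.25 and 0.31 in WT footprints 1, 2 and 3. With that library left out, 3 of the 10 were called lower in KO: Fosb at -1.85 (adjusted p = 0.0231), Egr1 at -0.71 (adjusted p = 0.0245) and Arc at -0.77 (adjusted p = 0.0434), all by limma. Calls over all genes also went up, to 488 lower and 468 higher of 14120 (3.46 and 3.31%). Npas4 changed sign without it, with -0.33 in place of 0.19. Leaving out any other single footprint library called none of the 10.

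**Figure D2:**
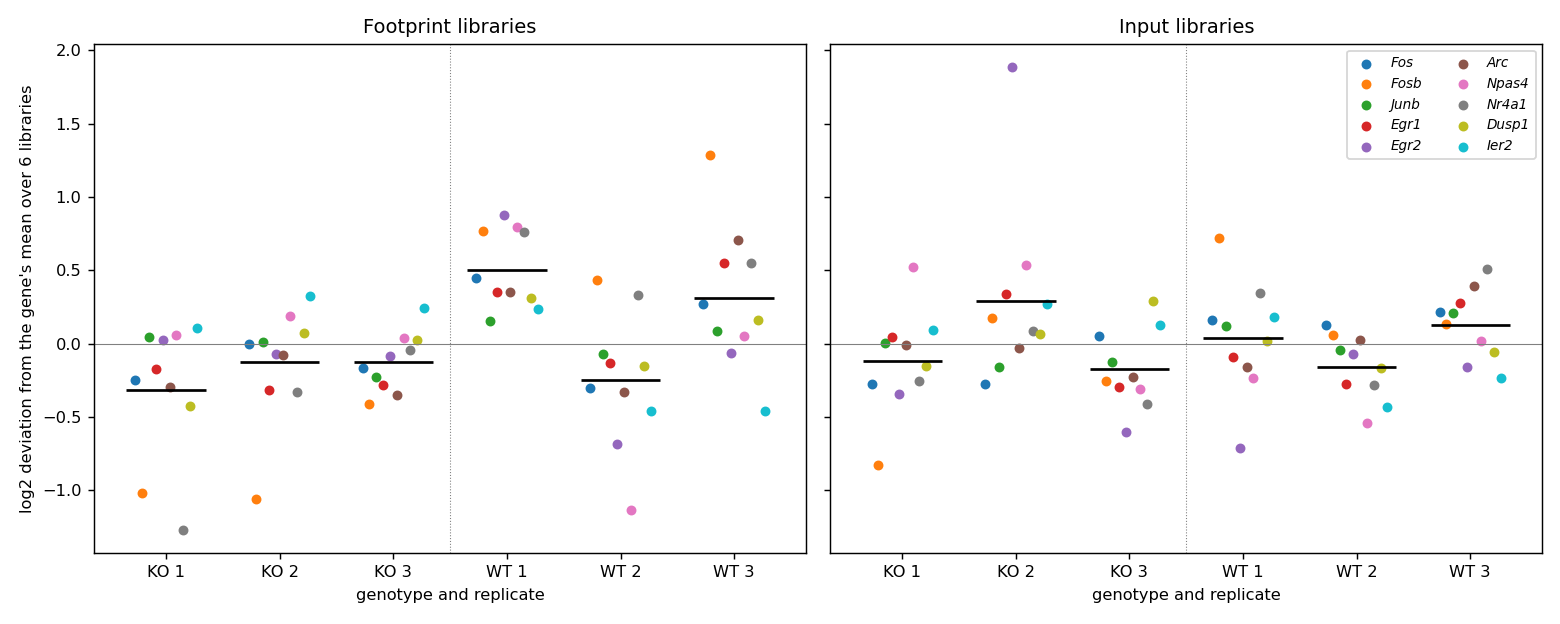
Log2 deviation of each gene from its own mean over the 6 libraries of an assay, footprints at left and input at right, KO libraries left of WT libraries. Black lines are means over the 10 genes: in footprints they are negative in all 3 KO libraries and in WT replicate 2, and positive in WT replicates 1 and 3.

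Summed signals of some marker lists of brain cell types moved with genotype in the same libraries. The summed signal of 6 oligodendrocyte markers was 58658 to 65566 in KO footprints against 33379 to 48871 in WT footprints, and 28804 to 30859 in KO inputs against 19441 to 20610 in WT inputs. The 6 neuronal markers summed to 43887 to 48500 in KO footprints against 48539 to 51932 in WT footprints, and overlapped in input. For 6 markers of excitatory neurons, the cells in which Arc and Npas4 are best known, the sums were 4288 to 4759 in KO footprints against 4900 to 5186 in WT footprints, and they overlapped in input. Microglial markers summed to 1099 to 1122 in KO footprints against 1129 to 1554 in WT footprints, and to 645 to 757 in KO inputs against 815 to 866 in WT inputs. Inhibitory neuron markers also had a lower sum in KO footprints, at 8897 to 9105 against 9119.8 to 9967 in WT footprints. Single markers did not all follow these sums. In footprints, 2 of 6 neuronal, 2 of 6 inhibitory, 2 of 6 microglial and 4 of 6 excitatory markers had a positive difference. Among all 14377 genes tested in footprints, 7338 did.

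Sums of other lists were higher in KO without overlap. Within them, 1 endothelial marker in footprints and 1 cerebellar and 1 striatal marker in input had a negative difference. Cerebellar markers summed to 2119 to 2239 in KO footprints against 1828 to 1959.8 in WT footprints, and to 1914 to 2140.3 in KO inputs against 1752 to 1874 in WT inputs. Endothelial markers summed to 1614 to 1786 in KO footprints against 1248 to 1424 in WT footprints. In input, astrocyte markers summed to 16655 to 17237 in KO against 14235 to 15501 in WT, and striatal markers to 1392 to 1525 in KO against 1187 to 1284 in WT. Sums of the choroid plexus, blood and pituitary lists overlapped between genotypes in both assays. Outside the pituitary list, no marker was at 0 in all libraries of a group. The part of these shifts in the differences of the immediate early genes was not tested.

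In input RNA, none of the 10 was called by limma and none had an unadjusted p below 0.05, which 1606 of all genes had. Among 15298 genes tested, 27 were called higher and 12 lower in KO (0.176 and 0.0784%). The signs were evenly divided, with 5 positive and 5 negative, and the median was -0.06 against 0.02 over all genes tested.

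Fos was the only one of the 10 whose input libraries did not overlap, with 68.9, 68.9 and 87.0 in KO brains against 93.8, 91.5 and 97.2 in WT brains. All KO libraries below all WT libraries was seen in 7.84% of genes. The difference of -0.33 ± 0.16 (SE) had an adjusted p of 0.507 by limma.

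Fosb had a low input signal of 7.05, 15.2 and 11.0 in KO brains, against 22.6, 13.9 and 14.7 in WT brains, which rested on an estimated 8 to 17 and 20 to 38 reads. KO replicate 2 was above a pair of WT libraries, and the difference of -0.61 had a 95% interval of -1.55 to 0.33. Nr4a1 input stood at 249, 316 and 223 in KO brains, against 379, 245 and 423 in WT brains, an overlapping pair of ranges with a difference of -0.38 (95% interval -0.93 to 0.16). For Egr1, lower in KO footprints in every library, the input signal was 174, 213 and 137 in KO brains against 158, 139 and 204.5 in WT brains. Its input difference was 0.06 (95% interval -0.45 to 0.56).

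Egr2 showed how much 1 library can weigh. Its input signal was 10.9, 54.8 and 8.97 in KO brains, against 8.22, 13.4 and 12.5 in WT brains, and the high value came from the shallow KO replicate 2, where it stood on an estimated 29 reads. The difference was 0.63 with all libraries and -0.16 without that one. Npas4 input was 74.8, 75.5 and 41.5 in KO brains against 43.8, 35.2 and 52.3 in WT brains, with a pair of KO libraries above all WT ones (difference 0.50, adjusted p = 0.572 by limma).

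Arc input was 456, 450.0 and 391 in KO brains, against 411, 468 and 604 in WT brains. Junb input was 264, 235 and 241 in KO brains, against 286, 256 and 304 in WT brains. Dusp1 input was 166, 193 and 225 in KO brains, against 187, 164 and 177 in WT brains. The groups overlapped in each of these, with differences of -0.18, -0.19 and 0.14. Ier2 input was 65.0, 73.9 and 66.6 in KO brains, against 69.2, 44.9 and 51.7 in WT brains, also overlapping, with a difference of 0.33.

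**Figure D3:**
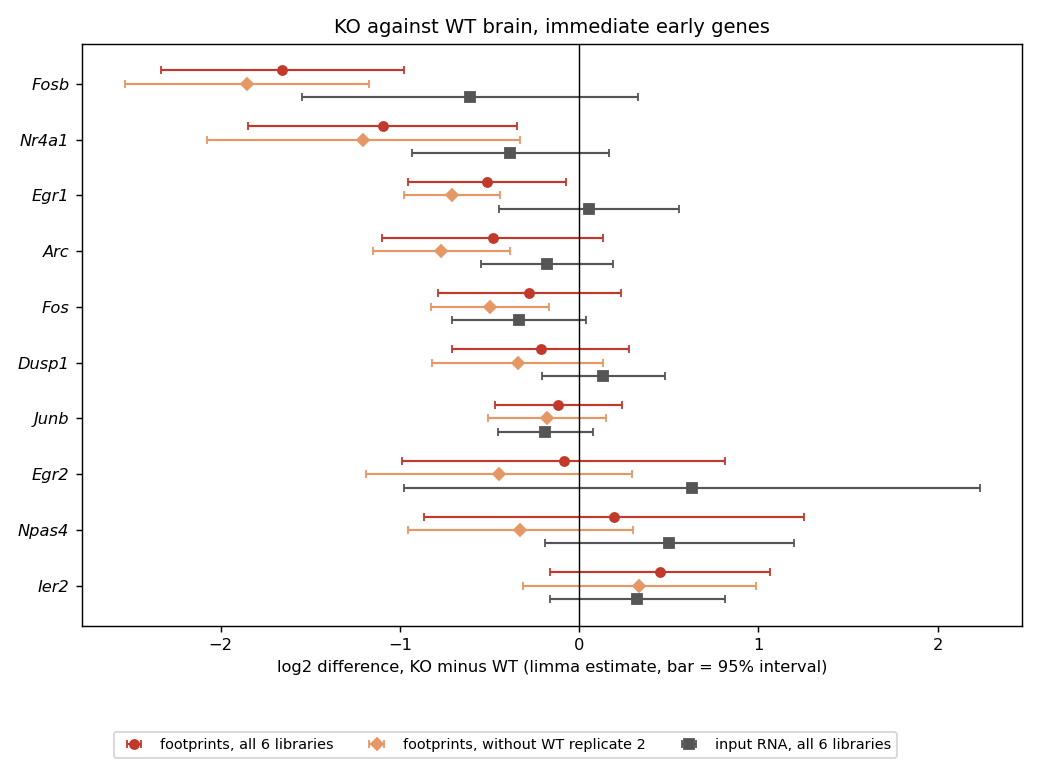
Log2 difference of KO minus WT for each gene, with 95% intervals from limma, in footprints, in footprints without WT replicate 2 and in input RNA. Footprint intervals of Fosb, Nr4a1 and Egr1 lie below 0, and all 10 input intervals include 0.

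The ratio of footprint to input signal, an estimate of translational efficiency, was compared between genotypes in 1 model over all 12 libraries. No member was called and none had an unadjusted p below 0.05, where 15 genes were called higher and 16 lower of 16527 (0.0908 and 0.0968%). The median was -0.33 over the 10 genes and 0.00 over all genes tested. Fosb had -1.05 (95% interval -2.10 to 0.00, adjusted p = 0.512 by limma), Egr1 had -0.57 (adjusted p = 0.557) and Nr4a1 had -0.71 (adjusted p = 0.609). These intervals are wide, so a lower or an equal ratio in KO both lie within them. In the authors' deposited table, the log2 values for the same difference had the same sign as these in 10 of 10 genes, and the smallest adjusted p in the authors' deposited table was 0.478, for Fosb at -0.99. Without WT footprint replicate 2 the median was -0.68, and still none of the 10 was called, with 437 higher and 437 lower among all genes (2.66% each).

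Within each genotype, footprints were compared with input from the same mice. In KO brain 7 of the 10 were called higher in footprints and none lower, where 24.2% of protein-coding genes were called higher and 24.4% lower. In WT brain 8 of the 10 were called higher and none lower, against 25.8% and 25% of protein-coding genes. The scaling sets the zero of this ratio, and the median over protein-coding genes was -0.02 in both genotypes. Over the 10 genes it was 1.07 in KO and 1.19 in WT. Such a median was not particular to them. Astrocyte markers had 1.22 in KO and 1.49 in WT, and inhibitory neuron markers 1.26 and 1.40. Neuronal markers had 1.04 and 0.94, microglial markers 0.44 and 0.47, and upstream regulators 0.19 and 0.30.

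A group of 4 genes stood at the top: Fosb, Fos, Egr1 and Egr2. The mean Fosb footprint signal was 94.6 ± 25.5 in KO brain against an input of 11.1 ± 4.06, and 303 ± 92.1 in WT brain against an input of 17.1 ± 4.83 (SD, n = 3 each). That is a log2 difference of 3.01 in KO and 4.06 in WT (adjusted p = 2.2e-05 and 1.96e-06 by limma), higher than in 99.1 and 99.7% of protein-coding genes. Fos had 2.87 in KO and 2.81 in WT, from a mean footprint signal of 552 ± 49.7 against an input of 74.9 ± 10.5 in KO and of 684 ± 174 against an input of 94.1 ± 2.88 in WT (SD, n = 3 each). The Fos ratio of the means was 7.37 in KO and 7.26 in WT. Egr1 had 2.82 in KO and 3.39 in WT, and Egr2 had 2.30 in KO and 3.02 in WT, all called. Without the shallow KO input replicate 2, Egr2 had 3.09 in KO. All 3 footprint libraries were above all 3 input libraries for 9 of the 10 genes in KO and for 7 in WT, against 28.7 and 28.4% of all genes tested.

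The other 6 had smaller ratios. Junb had 1.22 in KO and 1.15 in WT, Arc had 0.63 and 0.94, and Dusp1 had 0.57 and 0.92, each called in both genotypes. In KO the Arc call was narrow, with an adjusted p of 0.0398 by limma, and it was lost when any single KO library was left out (adjusted p 0.0601 to 0.117) or WT input replicate 2 was (adjusted p = 0.0531). The Dusp1 call in KO was lost without KO input replicate 1 (adjusted p = 0.0817) and without KO footprint replicate 2 or 3 (adjusted p = 0.078 and 0.0694). Npas4 was called in WT at 1.23 (adjusted p = 0.027) but not in KO at 0.92 (adjusted p = 0.085), and the WT call was lost without WT input replicate 1 or 2 or WT footprint replicate 1 or 3 (adjusted p 0.0602 to 0.107). Ier2 had 0.59 in KO and 0.46 in WT and was not called with all libraries, though its KO value passed without WT footprint replicate 1 or 2 (adjusted p = 0.0281 and 0.0464). The Npas4 value in KO also passed without either of those libraries (adjusted p = 0.0396 and 0.0175). Without WT footprint replicate 2, 9 of the 10 were therefore called higher in KO, where 26.3% of all genes tested were.

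Nr4a1 had footprint and input signals close to each other in both genotypes. Its mean footprint signal was 238 ± 93.3 in KO brain against an input of 263 ± 48.1, and 483 ± 72.2 in WT brain against an input of 349 ± 92.7 (SD, n = 3 each). The log2 difference was -0.22 in KO and 0.50 in WT (adjusted p = 0.578 and 0.191 by limma). The KO value became 0.14 when KO footprint replicate 1 was left out. No test was made of whether Nr4a1 differed from the other members.

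**Figure D4:**
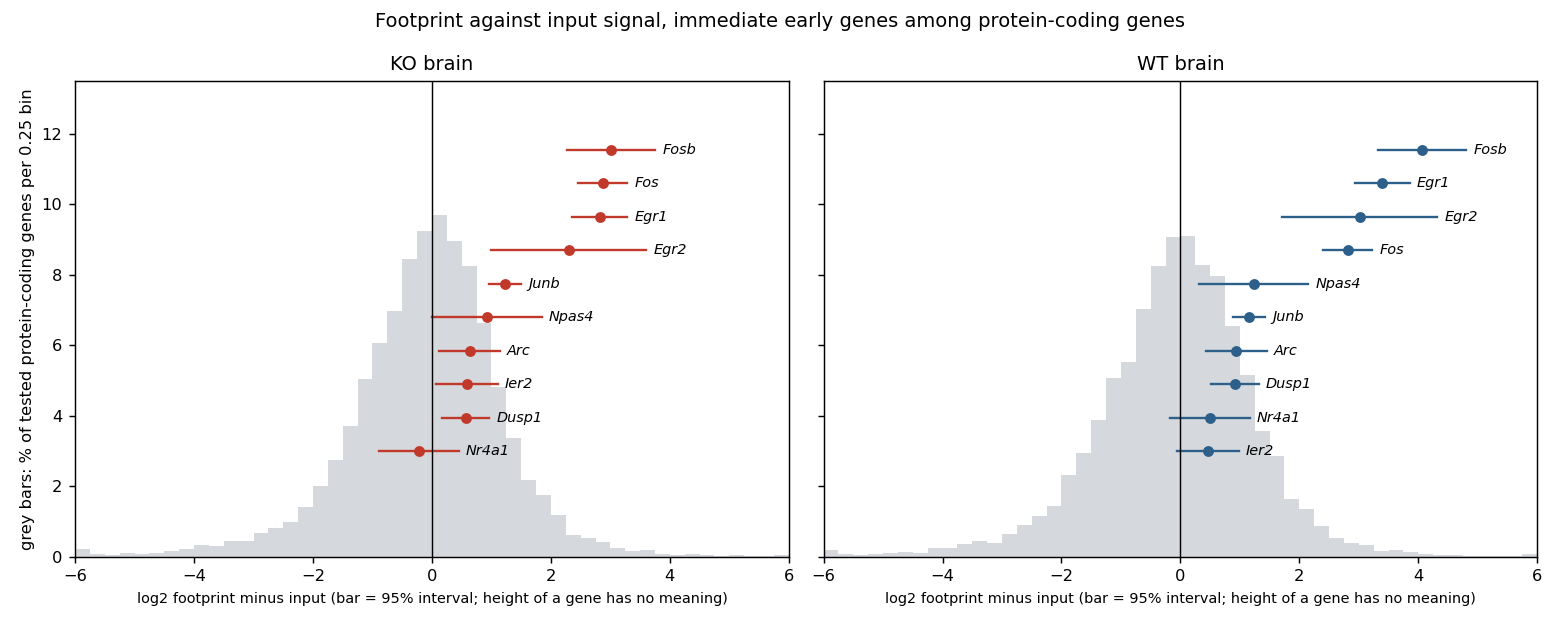
Log2 footprint minus input for each gene in KO brain (left) and WT brain (right), drawn over the distribution of all tested protein-coding genes (grey, percent per bin; values beyond 6 are placed in the outermost bins). Horizontal lines are 95% intervals; Fosb, Fos, Egr1 and Egr2 lie in the right tail in both genotypes.

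Other genes of the early response were taken from lists of related function. Of 30 further rapid primary response genes, 27 were tested in footprints and none was called between KO and WT, with a median difference of -0.16. All KO libraries were below all WT libraries in 7 of the 27 and above them in 2, against 8.74 and 8.46% of all genes tested. In input, 25 were tested, none was called, and the median was -0.18. Those with the highest input signal were Jund and Jun, which encode AP-1 subunits, and Dusp6, a MAP kinase phosphatase. Jund had a footprint difference of 0.25, Jun of 0.01 and Dusp6 of -0.61 (adjusted p 0.469 to 0.985 by limma).

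Without WT footprint replicate 2, 5 of these 27 were called lower in KO footprints and none higher, where 3.46% of all genes were called lower and 3.31% higher. They were Fosl2 at -2.07 (adjusted p = 0.0111), Egr3 at -1.28 (adjusted p = 0.0212), Nr4a3 at -1.19 (adjusted p = 0.027), Dusp6 at -0.91 (adjusted p = 0.0231) and Per1 at -0.80 (adjusted p = 0.0303), all by limma. Apart from Dusp6 they are named here because of these values. Fosl2, Egr3 and Nr4a3 belong to the families of Fos, Egr1 and Nr4a1. In each of them all KO libraries were below all WT libraries in footprints and in input with every library kept. Of all genes tested, 8.74% were so placed in footprints and 7.84% in input. Because the 3 genes were picked on footprint values, their footprint separation cannot be set against that share. The share of genes so placed in both assays was not counted. Fosl2 had a footprint signal of 99.2 to 131 in KO against 261 to 565 in WT, and an input of 70.2 to 80.2 in KO against 94.2 to 128 in WT. Egr3 had a footprint signal of 274 to 400 in KO against 582 to 823 in WT, and an input of 62.1 to 78.5 in KO against 85.8 to 131 in WT. Nr4a3 had a footprint signal of 253 to 288 in KO against 504 to 738 in WT, and an input of 39.8 to 59.0 in KO against 84.9 to 113 in WT. With all libraries their adjusted p-values by limma were 0.163, 0.212 and 0.14 in footprints, and 0.359, 0.363 and 0.255 in input. Relatives on the same list did not all follow. With all libraries Nr4a2 had 0.54 in footprints and 1.78 in input (adjusted p = 0.714 and 0.525 by limma). Egr4 had -0.37 and -0.18 (adjusted p = 0.468 and 0.807 by limma). Of the 27, 10 had a positive footprint difference, the largest in Btg2 at 0.96 (adjusted p = 0.392 by limma).

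Footprint against input gave calls in both directions within the AP-1 family. Of 28 further rapid primary response genes tested, 13 were called higher and 5 lower in KO, where 24.2 and 24.4% of protein-coding genes were. In WT 16 were called higher and 5 lower, where 25.8 and 25% of protein-coding genes were, so the lower calls made up a smaller share of the list than of protein-coding genes. Jund was lower in footprints, with a log2 difference of -2.67 in KO and -2.78 in WT (adjusted p = 2.22e-08 and 1.62e-08 by limma), while Fosb and Fos were higher. Its footprint signal averaged 136 in KO against an input of 865, and 114 in WT against an input of 788. Jun was higher by 0.51 in KO and 0.63 in WT.

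Genes that act later or upstream were examined the same way. None of 15 delayed and secondary response genes was called between KO and WT in footprints or in input, with medians of -0.20 and -0.09. Homer1, a scaffold of the postsynaptic density, was lower in footprints than in input, by -1.24 in KO and -0.95 in WT, and 8 of the 15 in KO and 7 in WT were called higher, where 24.2 and 25.8% of protein-coding genes were. Of 32 upstream regulators (receptors, kinases and factors of the pathway), none was called between genotypes in either assay, and the footprint median was -0.01. Among those with the highest input, the NMDA receptor subunit Grin1 had an input signal of 2492 to 2634 in KO against 2284 to 2334 in WT. The BDNF receptor Ntrk2 had an input of 2080 to 2235 in KO against 2135 to 2203 in WT.

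The lists of partners and corepressors, of AU-rich decay factors, of glucocorticoid-response genes and of heat-shock genes also gave no call between genotypes in footprints or input. Their footprint medians were -0.22, 0.08, -0.39 and -0.27 over 9, 13, 6 and 6 genes. Sgk1, a kinase induced by glucocorticoids, had an input signal of 360 to 483 in KO against 555 to 869 in WT. Hspa8, a constitutive chaperone, had a footprint signal of 13440 to 13910 in KO against 16183 to 17258 in WT. The values did not overlap in either case, a separation below WT seen in 7.84% of all genes tested in input and in 8.74% of those tested in footprints. Sgk1 overlapped between genotypes in footprints, with a difference of -0.49 (adjusted p = 0.561 by limma). Hspa8 had an input difference of -0.16 (adjusted p = 0.587 by limma).

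The genes with the pattern nearest to the mean of the 10 were sought over the 6 libraries of an assay, by the root mean square difference of log2 deviations. Over the footprints these were Chmp2a, Naa38, Asna1, Dync1i1 and Nmral1, at 0.0444 to 0.0643 among 10490 candidates. Fos itself was at 0.0708 and Fosb at 0.698. Both are part of the mean of the 10, so their distances cannot be set beside those of the candidates, which leave out the 10. Over the inputs the nearest were Fndc4, Hsd17b7, Ak6, Ptprt and P2ry12, at 0.0439 to 0.0504 among 10972 candidates. None of these 10 neighbours is on the lists of early response genes, and P2ry12 is on the list of microglial markers. Those early response lists hold 30 rapid and 15 delayed genes, a small part of the candidates, so their absence says little.

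Promoters are shown for Fosb and Nr4a1, which had the largest footprint differences, and for Fos, whose input libraries did not overlap. Each is 250 bases before the annotated start and 50 from it on (RefSeq, GRCm38.p6), and capitals mark TGACG or its reverse complement CGTCA, the core of the cAMP response element that CREB binds.
Fosb, chr7:19309996-19310295 (- strand): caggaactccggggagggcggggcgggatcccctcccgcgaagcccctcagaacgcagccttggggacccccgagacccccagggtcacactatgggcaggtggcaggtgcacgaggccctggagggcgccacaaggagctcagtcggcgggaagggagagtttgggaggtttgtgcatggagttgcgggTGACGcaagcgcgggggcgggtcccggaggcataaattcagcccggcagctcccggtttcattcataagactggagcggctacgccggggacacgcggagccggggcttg
Nr4a1, chr15:101266596-101266895 (+ strand): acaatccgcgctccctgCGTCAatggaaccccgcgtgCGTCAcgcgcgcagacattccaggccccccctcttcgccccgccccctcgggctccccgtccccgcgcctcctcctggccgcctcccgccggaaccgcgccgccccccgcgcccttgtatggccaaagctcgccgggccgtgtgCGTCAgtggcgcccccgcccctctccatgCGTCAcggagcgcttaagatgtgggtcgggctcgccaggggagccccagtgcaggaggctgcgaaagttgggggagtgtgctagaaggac
Fos, chr12:85473640-85473939 (+ strand): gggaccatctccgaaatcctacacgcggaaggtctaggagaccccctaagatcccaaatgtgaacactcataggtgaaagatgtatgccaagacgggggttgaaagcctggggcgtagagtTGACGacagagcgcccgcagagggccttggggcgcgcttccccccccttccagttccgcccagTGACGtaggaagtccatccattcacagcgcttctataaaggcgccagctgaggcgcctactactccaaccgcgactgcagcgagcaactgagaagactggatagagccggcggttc
Fos held 2 core sites, at -129 to -125 and -66 to -62 counted from the start, Fosb held 1 at -60 to -56, and Nr4a1 held 4. On either strand a core site was present in 7 of the 7 genes whose entries were used, which leave out Egr1. It was in 81.8% of their 11 starts, against 20.8% of all 32851 promoters. The starts of Egr2 share overlapping windows, so they are not separate observations. Among these 7 genes the full element TGACGTCA was in Dusp1 alone (1.79% of all promoters), where it overlaps a pair of core sites. The CArG box, the motif of SRF, was matched in 4 of the 5 Egr2 windows (1.63% of all promoters). It was in none of the other windows searched, and Egr1 was not searched. TATAAA was matched in Fos at -33 to -28 and in Junb at 1 to 6, where it begins at the annotated first base (13.6% of all promoters). A match says only that the letters are in the window, and elements farther upstream were not searched.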

How the data were processed

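Brain footprint and input libraries (3 KO and 3 WT mice each) came as 1 table with 1 column per library. Each value is a signal deposited by the authors, an estimate of reads per gene divided by a factor for the library. Tools listed in the submitters' processing notes, with no role given, are STAR, DESeq, DESeq2 1.25.10, R 3.6.2 and Salmon 0.12.0. No source used here states the build, the filters or whether strand was used. The table also holds the authors' deposited log2 fold and adjusted p-value per gene for the change of the footprint-to-input ratio with genotype, as judged from the values.

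In brain 7.66 to 15.1% of values were whole multiples of the signal of 1 read, so no count model was run and limma 3.58.1 in R 4.3.3 was used on log2(signal + 1), with empirical Bayes and a mean-variance trend. A gene was tested when 3 or more libraries reached a signal of 10, with Benjamini-Hochberg adjustment at 0.05. The pseudocount understates the change of low genes. Reads were estimated from the commonest low value of each library, and intervals cover the spread between libraries. KO against WT used 6 libraries, and footprint against input and its difference between genotypes used all 12 in 1 model, which takes libraries as independent although footprint and input of a mouse share a lysate. With no replicate number in the labels, libraries were numbered in accession order and left unpaired.

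The 10 genes, the other lists and the rule for named genes were chosen with earlier results of these data known. Named genes are the 10, from each other list those called between genotypes and up to 3 with the highest input, and the 5 nearest in pattern in each assay. Not every gene the rule selects is printed, and some are not reported here. Alternatives were the pseudocount, the filter, the scaling, the variance model and each library left out. After the data were seen, a fit of protein-coding genes alone and one without KO input replicate 2 and WT footprint replicate 2 were added. The tissue RNA-seq libraries were not analysed here. Code was tested on simulated data.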

Additional observations from a re-analysis of the deposited data

How the results depend on the processing

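No paired analysis was possible because the labels carry no replicate numbers. Calls over all genes in KO against WT were few and depended on the settings. In footprints there were 32, with 21 at a pseudocount of 0.5, 10 over protein-coding genes alone and 162 with the spread taken from all 12 libraries, where 1 of the 10 genes, Fosb, was called lower (adjusted p = 0.0484 by limma). In input there were 39, and 13 over protein-coding genes alone. In the ratio of footprint to input there were 31, with 48 without the trend, 4 over protein-coding genes alone and 734 without KO input replicate 2 and WT footprint replicate 2 together, where Fos became -0.22 and Junb -0.025. Arc in KO, footprint against input, was not called without the filter (adjusted p = 0.0591) or without the trend (0.0606), and Ier2 was called when libraries were rescaled to the same protein-coding total (0.0449) or without the trend (0.0486). The cause was not tested.

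With each library left out in turn, the calls over all genes ranged from 0 to 956 in footprints, 7 to 24 in input, 15 to 874 in the ratio between genotypes, 7578 to 9410 in footprint against input in KO and 7803 to 9281 in WT. The 10 genes had 0 to 3 lower calls in footprints, 5 to 9 higher calls in footprint against input in KO and 7 to 8 in WT. Signs changed in input for Egr1 (-0.10 to 0.22) and Egr2 (-0.16 to 1.09), in footprints for Egr2 (-0.45 to 0.33) and Npas4 (-0.33 to 0.64), in the ratio between genotypes for Fos (-0.17 to 0.21), Egr2 (-1.17 to 0.072), Npas4 (-0.83 to 0.14) and Ier2 (-0.044 to 0.36), and in footprint against input in KO for Nr4a1 (-0.47 to 0.14). Junb in the ratio between genotypes stayed positive with any 1 library left out (0.008 to 0.16). With 3 mice a genotype, differences of the size seen for Arc or Egr1 did not pass the adjustment with all libraries.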

Other observations

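The m6Am-Exo-Seq assay of testes, which precipitates capped RNA ends with an antibody that binds m6Am, lists all 10 genes in KO and heterozygous (HET) mice. The labels name the precipitate m6A IP, so signal in it is not taken here as a measure of m6Am alone. Of the 10, 4 reached a signal of 10 in 3 or more libraries: Fosb, Arc, Nr4a1 and Dusp1. Fosb had 57.3 ± 14.7 in the KO precipitate against 11.7 ± 6.88 in the KO input, and 31.9 ± 13.7 in the HET precipitate against 5.07 ± 3.68 in the HET input (SD, n = 3 each). Arc had 120.3 ± 29.8 in the KO precipitate against 243 ± 26.7 in the KO input, and 274 ± 90.1 in the HET precipitate against 276 ± 14.5 in the HET input (SD, n = 3 each). In the authors' deposited table the difference between genotypes in precipitate against input was -1.04 on the log2 scale for Arc (adjusted p = 0.0147). It was -0.30 for Fosb in the authors' deposited table (adjusted p = 0.847), 0.28 for Nr4a1 (adjusted p = 0.503) and -0.33 for Dusp1 (adjusted p = 0.713). How many of all genes passed there was not counted, so the Arc value has no share to be set against. No test was made here on the testes values.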
